A study of Mus musculus with 5 samples.

Results

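Expression of 10 genes that govern the entry of pyruvate into mitochondria was examined in MEFs, iPSCs, and mESCs, and in mESCs after knockdown of Gldc. The genes were chosen by symbol: Mpc1 and Mpc2, Pdha1 and Pdhb, Pdk1, Pdk2, Pdk3, and Pdk4, Pdp1, and Pcx. All 10 had a row in both deposited tables of 24421 genes, and all 10 were among the 13656 genes with 1 or more libraries of the 5 at an FPKM of 1 or above. FPKM counts the fragments per kilobase of transcript, scaled to the mapped fragments of the library. MEFs are fibroblasts grown from CF-1 mouse embryos. The iPSCs are a line of reprogrammed cells with the potency of an embryonic stem cell. V6.5, a line of mouse embryonic stem cells, was sequenced untreated and is called mESCs below. The labels give no strain for either pluripotent line. The other 2 libraries are V6.5 cells that stably expressed a non-targeting control shRNA (NTC) or an shRNA against Gldc (shGldc), the glycine decarboxylase of the glycine cleavage system. No group carried another stated allele or treatment. Per the labels, the pluripotent lines grew without feeders in serum replacement medium with sodium pyruvate and leukaemia inhibitory factor, whereas neither is listed for the medium of the MEFs, so cell type and medium cannot be told apart. Each group was 1 library, which for the iPSCs is 1 line, so no difference below has a replicate error or a p-value.

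Pyruvate made by glycolysis in the cytosol meets a branch point. Lactate dehydrogenase turns it into lactate, or the mitochondrial pyruvate carrier, a complex of MPC1 and MPC2, takes it across the inner mitochondrial membrane. Inside, the pyruvate dehydrogenase complex converts it to acetyl-CoA, and pyruvate carboxylase, encoded by Pcx, converts it to oxaloacetate. The PDK kinases phosphorylate the E1 alpha subunit and switch the dehydrogenase off, and the PDP phosphatases remove the phosphate and switch it on again. Pluripotent stem cells are known for a high rate of glycolysis. Pdk1 is a known target of the hypoxia-inducible factor HIF, and Pdk4 a known target of PPAR and FOXO factors.

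The kinases include the members with the widest range over the libraries (Pdk1 and Pdk4) and the narrowest (Pdk3), so the DNA just upstream of their start sites is shown. Each sequence is the RefSeq stretch of GRCm38.p6 (mm10) before the start site nearest to the annotated gene start, read 5′ to 3′ on the strand of the gene. Bases that lie in an annotated exon of the gene were left off, which were 51 for Pdk3 and 31 for Pdk4. The stretch of Pdk1 is chr2:71872974-71873223 on the plus strand. Those of Pdk2 (chr11:95041372-95041621), Pdk3 (chrX:93832202-93832400), and Pdk4 (chr6:5496310-5496528) are on the minus strand. Capitals mark the HIF core letters, ACGTG or GCGTG, searched on both strands.
Pdk1: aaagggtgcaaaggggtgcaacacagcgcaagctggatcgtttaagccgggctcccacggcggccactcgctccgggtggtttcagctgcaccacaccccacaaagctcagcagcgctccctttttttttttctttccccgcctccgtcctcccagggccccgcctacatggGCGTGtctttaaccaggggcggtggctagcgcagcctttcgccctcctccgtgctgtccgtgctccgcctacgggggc
Pdk2: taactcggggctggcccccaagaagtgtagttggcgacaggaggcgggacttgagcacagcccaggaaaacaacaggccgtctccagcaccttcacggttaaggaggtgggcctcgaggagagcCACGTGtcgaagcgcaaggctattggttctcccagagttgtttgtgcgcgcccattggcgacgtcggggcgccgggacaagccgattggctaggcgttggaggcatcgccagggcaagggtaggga
Pdk3: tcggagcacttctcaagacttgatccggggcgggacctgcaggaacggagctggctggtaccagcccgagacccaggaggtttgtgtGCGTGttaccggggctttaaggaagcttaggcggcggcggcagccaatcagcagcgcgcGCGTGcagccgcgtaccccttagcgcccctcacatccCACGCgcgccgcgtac
Pdk4: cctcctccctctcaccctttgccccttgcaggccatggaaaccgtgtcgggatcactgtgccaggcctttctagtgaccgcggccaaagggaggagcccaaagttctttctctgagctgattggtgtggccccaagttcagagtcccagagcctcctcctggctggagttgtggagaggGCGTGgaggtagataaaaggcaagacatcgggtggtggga
Over the full 250 bases before the start site, Pdk1 and Pdk4 each held 1 match, Pdk2 held 2 that overlap within 1 E-box (CACGTG), and Pdk3 held 4. The last match of Pdk3 runs into its first exon and is not printed. Among the other members with a window, Mpc1 and Mpc2 held 1 each, Pdhb 2, and Pdha1 and Pcx 3 each, of which 2 in Pcx overlap in an E-box. The start sites used for Mpc1 and Mpc2 lie 883 and 623 bases from the annotated gene start. Their windows are inside the annotated genes. Pdp1 was not matched, so windows were found for 9 of 10 members. At least 1 match was present in 38.6% of 32851 windows of the same length over all RefSeq start sites, at least 2 in 16.7%, at least 3 in 6.58%, and at least 4 in 2.58%. An E-box, which always holds the HIF core on both strands, was present in 6.02%. The matches describe the letters of these windows and no binding was measured.

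The libraries matched their labels. All 8 pluripotent cell markers had an FPKM of at least 1 in each of the 4 pluripotent libraries, where they summed to 3606 to 6758, against 2.54 in MEFs. The 8 fibroblast markers summed to an FPKM of 7112 in MEFs and 5.84 to 52.7 elsewhere. MEFs also held all 10 macrophage markers at an FPKM of at least 1, with a sum of 342, against 34 to 167 in the other libraries. Of the 10, only C1qc and Tyrobp were at 0 in every other library. Not every marker of the list was highest in MEFs, since Laptm5 had an FPKM of 18.0 in MEFs, 144.6 in iPSCs, 24.0 in mESCs, 59.3 with NTC, and 20.3 with shGldc. Cd68 had an FPKM of 18.7 in MEFs, 19.9 in iPSCs, 9.04 in mESCs, 13.0 with NTC, and 12.7 with shGldc. The part of these cells in the MEF values was not tested. In bulk RNA, fewer cells of a type and less RNA per cell cannot be told apart. Gldc had an FPKM of 74.7 with NTC and 2.07 with shGldc, and of 0.123 in MEFs, 70.8 in iPSCs, and 59.7 in mESCs. Depth, read from the steps between low FPKM values, came to about 22100000 to 24700000 fragments in the 3 untreated libraries and 14500000 for NTC. For shGldc, steps for 28800000 and 14400000 fragments were met equally often.

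The 10 members fell into genes that were higher in both pluripotent lines than in MEFs, genes that were lower or little different, and a set of genes that differed between the V6.5 libraries. Ratios are given as differences of log2(FPKM + 0.1), so changes of weakly expressed genes come out too small, and a gene was counted as higher or lower when that ratio was at least 2-fold. In mESCs over MEFs, 3 of the 10 were at least 2-fold higher (Pdk1, Pdk4, and Pdhb) and 0 lower, against 31.8% of all 13656 genes higher and 22.2% lower. In iPSCs over MEFs, 4 were higher, Pcx being the addition, against 32.7% of all genes, and 1 was lower, Mpc2 at the edge of the threshold, against 20.4%. The median log2 ratio of the members was -0.06 in mESCs and 0.05 in iPSCs, beside 0.30 and 0.36 for all genes. With the libraries rescaled to the same FPKM sum, which shifted the median of all genes by -0.23 in mESCs and -0.30 in iPSCs, 1 member (Pdk1) stayed past 2-fold higher in mESCs, 1 was lower in mESCs and 3 in iPSCs, and the median of the members in iPSCs turned to -0.25. Both comparisons share the MEF library. Between iPSCs and mESCs, 0 of the 10 members were 2-fold apart in either direction, where 10.1% of all genes were higher and 8.11% lower in iPSCs.

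**Figure D1:**
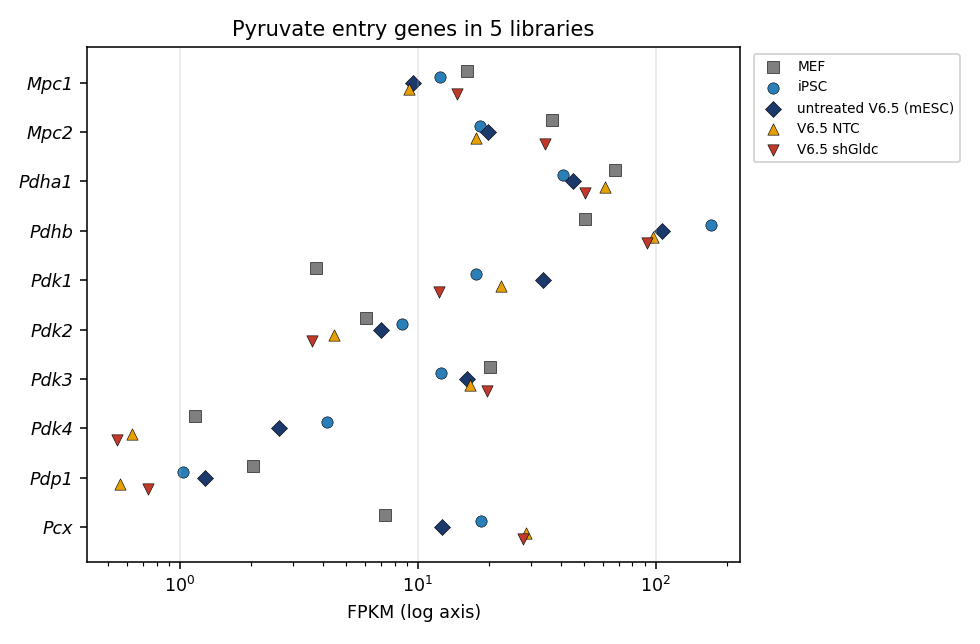
FPKM of the 10 members (log axis) in the 5 libraries, 1 point per library, with no error bars because each group is 1 library. Pdk1 spans from 3.76 in MEFs to 33.6 in mESCs, whereas Pdk3 stays between 12.6 and 20.1.

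Mpc1 (chr17:8282904-8297661, plus strand) and Mpc2 (chr1:165460637-165481214, plus strand) encode the subunits of the pyruvate carrier. The FPKM of Mpc1 was 16.1 in MEFs, 12.4 in iPSCs, 9.60 in mESCs, 9.16 with NTC, and 14.6 with shGldc. For Mpc2 the FPKM was 36.7 in MEFs, 18.3 in iPSCs, 19.8 in mESCs, 17.6 with NTC, and 34.4 with shGldc. MEFs had the highest level of both genes, and the shGldc library stood next to MEFs, above the 3 other pluripotent libraries. The log2 ratio in mESCs over MEFs was -0.74 for Mpc1 and -0.88 for Mpc2, and in iPSCs over MEFs it was -0.38 for Mpc1, whereas Mpc2 had an FPKM 0.498 times that of MEFs. With shGldc over NTC it was 0.67 for Mpc1 and 0.96 for Mpc2, an FPKM fold of 1.60 and 1.96. Neither reached 2-fold. Mpc2 had the highest ratio of the 10 members in that comparison, and 9.96% of all genes had a higher one than Mpc2 and 15.8% a higher one than Mpc1. Counting error alone left Mpc2 between an FPKM of 15.5 and 19.9 with NTC and between 32.4 and 36.6 with shGldc (95% Poisson intervals from about 262 and 1017 fragments, at a depth of 28800000 for shGldc). The ratio of Mpc2 to Mpc1 within a library was lowest in iPSCs, at 1.48, and 1.92 to 2.35 in the other 4. Of the exonic bases of Mpc1, 23.1% are shared with 4930506C21Rik on the opposite strand, whose FPKM was 0 to 0.126, and its pseudogene Mpc1-ps shares 11% of its 50-nt stretches.

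Pdha1 (chrX:160122209-160138413, minus strand) and Pdhb (chr14:8165996-8173025, minus strand) encode the alpha and beta subunits of E1, the first enzyme of the pyruvate dehydrogenase complex. The FPKM of Pdha1 was 67.6 in MEFs, 40.9 in iPSCs, 44.9 in mESCs, 61.5 with NTC, and 50.4 with shGldc. That of Pdhb was 50.5 in MEFs, 170.5 in iPSCs, 106.8 in mESCs, 97.6 with NTC, and 91.6 with shGldc. MEFs were thus the highest library for Pdha1 and the lowest for its partner Pdhb. The log2 ratio over MEFs was 1.08 in mESCs and 1.75 in iPSCs for Pdhb, and -0.59 and -0.72 for Pdha1. Within a library, the ratio of Pdhb to Pdha1 in FPKM was 0.747 in MEFs, 4.17 in iPSCs, 2.38 in mESCs, 1.59 with NTC, and 1.82 with shGldc. In FPKM, Pdha1 was the higher of the pair only in MEFs. Its longest coding transcript is 2848 nt against 1513 nt for Pdhb, and by estimated fragments Pdha1 was also the higher with NTC (2538 against 2141) and with shGldc (4136 against 3992). With shGldc over NTC, the log2 ratio was -0.28 for Pdha1 and -0.09 for Pdhb. Pdha1 shares 16.1% of its exonic bases with Map3k15 on the opposite strand, whose FPKM was 0.253 to 2.00, and 10.8% of the 50-nt stretches of Pdhb also occur in the pseudogene Gm6123.

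The other subunit genes of the complex differed less between cell types. Dlat, the E2 acetyltransferase, had an FPKM of 20.8 in MEFs, 20.8 in iPSCs, 27.2 in mESCs, 23.1 with NTC, and 23.9 with shGldc. Dld, the E3 dehydrogenase that the glycine cleavage system also uses, had 30.3, 32.1, 29.3, 16.1, and 19.3 in the same order. Pdhx, which anchors E3, had 9.03, 12.5, 11.3, 13.4, and 19.9. These subunits stayed within 2-fold in mESCs and in iPSCs over MEFs and in shGldc over NTC, so Pdhb was the subunit gene of the complex that was past 2-fold over MEFs. Among the genes that attach its lipoyl group, Lias, the lipoyl synthase, had an FPKM of 12.7 in MEFs and 18.1 to 24.6 in the pluripotent libraries, and Lipt1 ranged from 2.86 to 5.66. Lipt2, the lipoyl transferase that acts before Lias, had 4.18 in MEFs, 4.37 in iPSCs, 9.77 in mESCs, 4.69 with NTC, and 5.28 with shGldc. The testis form of E1 alpha, Pdha2, stayed below an FPKM of 1 in every library and was left out of the counts. Of the 8 genes of this list that passed, 2 were at least 2-fold higher in mESCs over MEFs (Pdp2 and Lipt2), 1 in iPSCs over MEFs (Pdp2), and 0 lower in either. Of all genes, 31.8% were higher and 22.2% lower in mESCs over MEFs, and 32.7% and 20.4% in iPSCs over MEFs. The median log2 ratio of the 8 was 0.57 and 0.27, beside 0.30 and 0.36 for all genes.

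Pdk1 (chr2:71873224-71903858, plus strand) had the widest range of the 10 members. Its FPKM was 3.76 in MEFs, 17.6 in iPSCs, 33.6 in mESCs, 22.4 with NTC, and 12.3 with shGldc. All 4 pluripotent libraries were above MEFs, and the shGldc library was the lowest of them. The FPKM was 8.95-fold higher in mESCs than in MEFs and 4.67-fold higher in iPSCs, with log2 ratios of 3.13 and 2.20. A higher ratio than that of Pdk1 was found for 9.28% of all genes in mESCs and for 15.1% in iPSCs. In iPSCs over mESCs, its log2 ratio was -0.93, the lowest of the 10 members. With shGldc over NTC, it was -0.86, again the lowest of the 10, an FPKM 0.548 times that of NTC. A lower ratio in that comparison was found for 10.6% of all genes. The counting intervals of Pdk1 were 21.4 to 23.5 for NTC and 11.7 to 12.9 for shGldc. NTC itself was below untreated mESCs, with a log2 ratio of -0.58 across the 2 separately made tables. Pdk1 was also once a name of Pdpk1, another kinase, which has a row of its own in the tables.

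Pdk3 (chrX:93764607-93832201, minus strand) varied least, with an FPKM of 20.1 in MEFs, 12.6 in iPSCs, 16.2 in mESCs, 16.6 with NTC, and 19.6 with shGldc. The highest value was 1.60-fold the lowest. Pdk2 (chr11:95026258-95041354, minus strand) had an FPKM of 6.08 in MEFs, 8.57 in iPSCs, 6.99 in mESCs, 4.44 with NTC, and 3.58 with shGldc. Its untreated libraries were thus all above the 2 shRNA libraries, with log2 ratios of 0.20 in mESCs over MEFs and -0.30 in shGldc over NTC. Pdk4 (chr6:5483351-5496309, minus strand) was the least abundant kinase, with an FPKM of 1.16 in MEFs, 4.15 in iPSCs, 2.62 in mESCs, 0.633 with NTC, and 0.544 with shGldc. Its log2 ratio over MEFs was 1.11 in mESCs and 1.75 in iPSCs, and both shRNA libraries were below every untreated one. About 32 fragments stood behind the NTC value of Pdk4 and about 54.5 behind that of shGldc, with counting intervals of 0.433 to 0.894 and 0.409 to 0.708 in FPKM. The difference between these 2 libraries was not detectable at this depth.

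**Figure D2:**
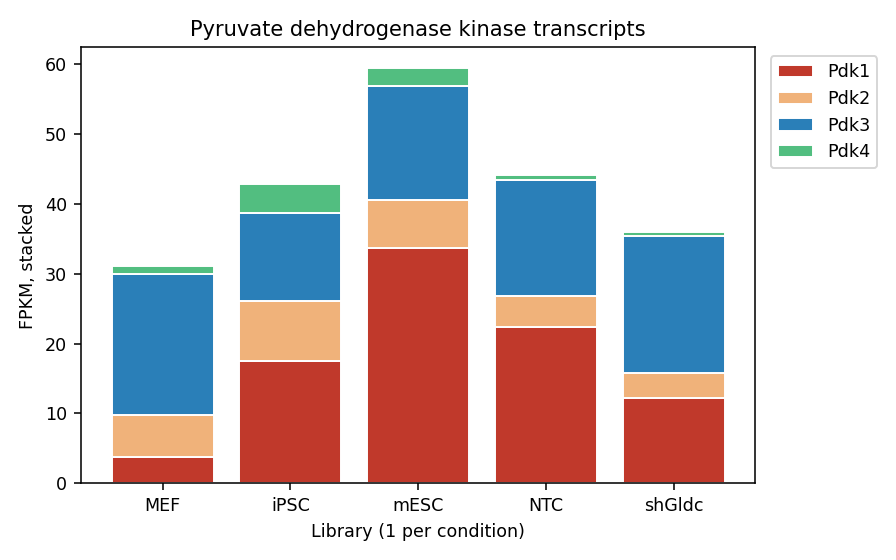
FPKM of the 4 kinase genes stacked from 0, 1 bar per library, with no error bars because each group is 1 library. Pdk3 is the largest block in MEFs and with shGldc, and Pdk1 in iPSCs, in mESCs, and with NTC, while the whole bar runs from 31.1 in MEFs to 59.5 in mESCs.

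The balance of the kinases can be read within each library, where the scaling between libraries drops out. Pdk1 made up 12.1% of the summed FPKM of the 4 kinases in MEFs, 41% in iPSCs, 56.6% in mESCs, 50.8% with NTC, and 34.1% with shGldc. The share of Pdk3 was 64.7% in MEFs, 29.3% in iPSCs, 27.3% in mESCs, 37.7% with NTC, and 54.4% with shGldc. Pdk3 therefore led in MEFs and with shGldc, and Pdk1 in iPSCs, in mESCs, and with NTC. In FPKM, the ratio of Pdk1 to Pdk3 was 0.187 in MEFs, 1.40 in iPSCs, 2.08 in mESCs, 1.35 with NTC, and 0.628 with shGldc. Pdk2 held 19.5% in MEFs, 20% in iPSCs, 11.8% in mESCs, 10.1% with NTC, and 9.96% with shGldc, and Pdk4 held 1.44% to 9.68%. FPKM divides by transcript length, and the longest coding transcript of Pdk1 is 5185 nt against 2115 nt for Pdk3. Shares of fragments instead of FPKM put Pdk1 first with shGldc as well, at 55.4% against 36% for Pdk3, but kept Pdk3 first in MEFs. The summed FPKM of the 4 kinases was 31.1 in MEFs, 42.9 in iPSCs, 59.5 in mESCs, 44.1 with NTC, and 36.0 with shGldc. Set against Pdha1, the gene of their substrate, this sum gave a ratio of 0.461 in MEFs, 1.05 in iPSCs, 1.32 in mESCs, 0.718 with NTC, and 0.713 with shGldc.

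Pdp1 (chr4:11958184-11966452, minus strand) encodes a phosphatase that opposes the kinases. Its FPKM was 2.04 in MEFs, 1.04 in iPSCs, 1.28 in mESCs, 0.564 with NTC, and 0.736 with shGldc. MEFs had the highest level, and the shRNA libraries the lowest, from about 34.3 fragments with NTC and 89.1 with shGldc. The log2 ratio was -0.63 in mESCs over MEFs, -0.91 in iPSCs over MEFs, and 0.33 in shGldc over NTC. Pdp2, the other phosphatase, was lowest in MEFs and highest in the shRNA libraries, with an FPKM of 1.96 in MEFs, 4.67 in iPSCs, 5.23 in mESCs, 11.3 with NTC, and 15.4 with shGldc. The ratio of Pdp1 to Pdp2 was 1.04 in MEFs and 0.0479 to 0.246 in the pluripotent libraries. Pdpr, the regulatory subunit of the phosphatase, had an FPKM of 3.10 in MEFs, 5.71 in iPSCs, 4.78 in mESCs, 7.41 with NTC, and 7.61 with shGldc. The summed FPKM of the kinases over that of the 2 phosphatases was 7.78 in MEFs, 7.51 in iPSCs, 9.13 in mESCs, 3.73 with NTC, and 2.23 with shGldc. This ratio differed little between MEFs and the untreated pluripotent lines and was lower in both shRNA libraries.

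Pcx (chr19:4510472-4621752, plus strand) encodes pyruvate carboxylase, which feeds the tricarboxylic acid cycle without acetyl-CoA. Its FPKM was 7.30 in MEFs, 18.5 in iPSCs, 12.7 in mESCs, 28.7 with NTC, and 27.8 with shGldc. MEFs were the lowest, and the shRNA libraries stood above every untreated one. The log2 ratio was 0.78 in mESCs over MEFs, 1.33 in iPSCs over MEFs, and -0.04 in shGldc over NTC. Relative to Pdha1 in the same library, Pcx was at 0.108 in MEFs, 0.454 in iPSCs, 0.282 in mESCs, 0.466 with NTC, and 0.551 with shGldc. Relative to Pdhb, the values were 0.145, 0.109, 0.119, 0.294, and 0.303, so the order of MEFs and the untreated pluripotent lines depended on which subunit Pcx was set against. Pcx overlaps Lrfn4 on the opposite strand but shares 0 exonic bases with it.

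**Figure D3:**
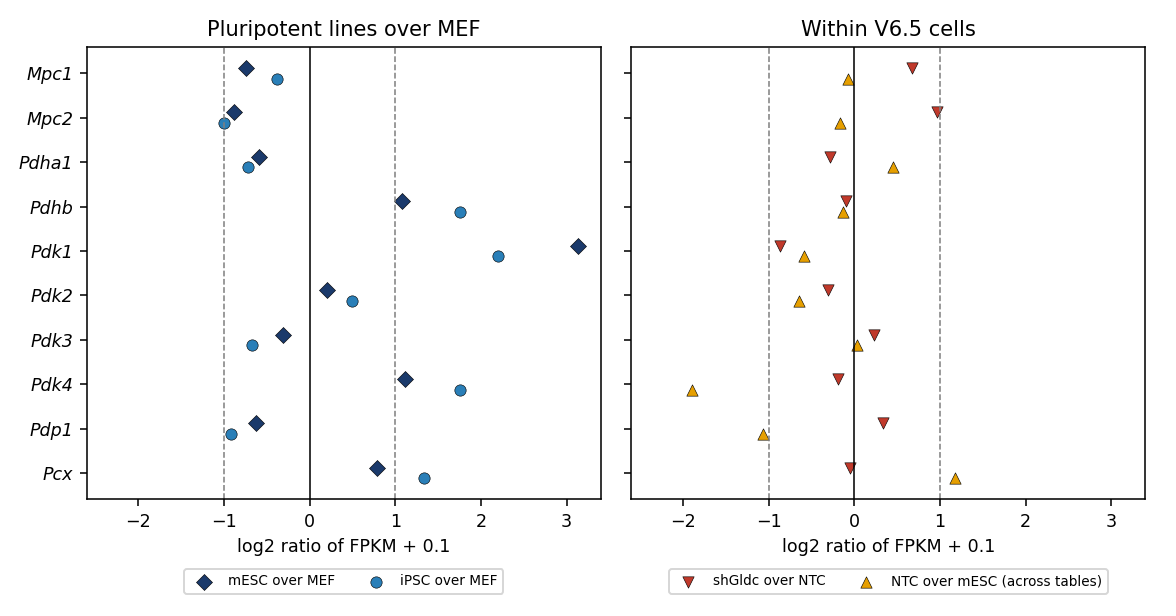
Log2 ratio of FPKM + 0.1 for each member, with mESCs and iPSCs over MEFs in the left panel and shGldc over NTC and NTC over mESCs in the right panel, and dashed lines at 2-fold. In shGldc over NTC all 10 points lie inside the dashed lines, with Mpc2 at 0.96 and Pdk1 at -0.86 nearest to them.

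The knockdown comparison asked what the loss of Gldc does in V6.5 cells. In shGldc over NTC, 0 of the 10 members were 2-fold or more apart in either direction, where 9.55% of all genes were higher and 8.9% lower. The median log2 ratio of the members was -0.07, beside 0.02 for all genes. The genes nearest to 2-fold were the carrier genes Mpc2 and Mpc1 on the higher side and Pdk1 on the lower side. The other 7 members lay between -0.30 (Pdk2) and 0.33 (Pdp1). NTC and untreated mESCs are the same line, with and without the control shRNA, and come from separately made tables, so vector and table cannot be told apart in this pair, which shares its NTC library with the knockdown comparison. In NTC over mESCs, 1 member was at least 2-fold higher (Pcx, 1.17) against 5.06% of all genes, and 2 were lower (Pdk4, -1.89, and Pdp1, -1.06) against 12.1%. With a pseudocount of 1, Pdk4 at -1.15 was the 1 member still past 2-fold lower. The log2 ratios of Mpc1 and Mpc2 in the same pair were -0.07 and -0.17. In that pair, 3.88% of all genes had a lower ratio than Pdk4, and 3.65% had a higher one than Pcx. Of the 8 fibroblast markers, 5 were at least 2-fold lower with NTC than in mESCs and 0 higher, with a median of -3.11. Their link to the members' ratios was not tested. Across the tables, shGldc over mESCs gave a log2 ratio of -1.45 for Pdk1, 0.60 for Mpc1, 0.79 for Mpc2, and 1.13 for Pcx.

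**Figure D4:**
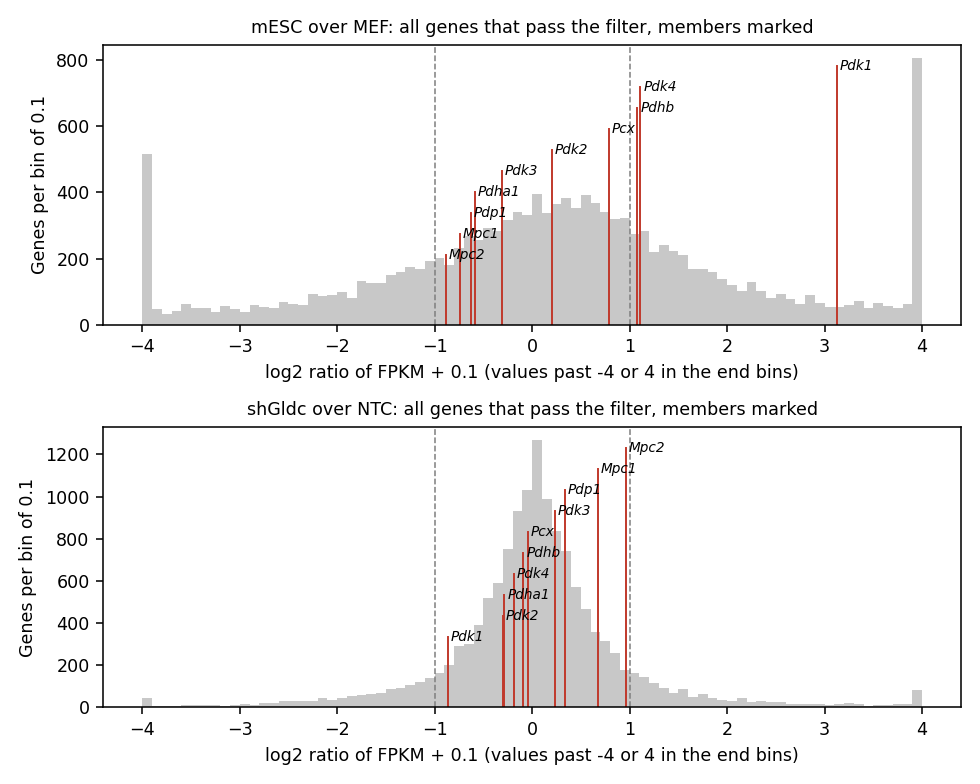
Number of genes (of 13656) by log2 ratio of FPKM + 0.1 in bins of 0.1, for mESCs over MEFs (top) and shGldc over NTC (bottom), with values past 4 in the end bins, a red line for each member (line heights only keep the names apart), and dashed lines at 2-fold. Pdk1 at 3.13 in mESCs over MEFs is the member farthest from 0.

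The counts of the related gene lists stand beside the shares of all genes past 2-fold, which were 31.8% higher and 22.2% lower in mESCs over MEFs, 32.7% and 20.4% in iPSCs over MEFs, 9.55% and 8.9% in shGldc over NTC, and 5.06% and 12.1% in NTC over mESCs. The lactate branch competes for the same pyruvate. Of its 10 genes, 8 passed, and 5 were at least 2-fold higher in mESCs over MEFs (Ldhb, Ldhc, Ldhd, the lactate carrier gene Slc16a1, and Emb, which encodes a chaperone of such carriers) and 0 lower, against 31.8% and 22.2% of all genes. Ldhc, at 0 in MEFs, and Ldhd, at an FPKM of 0.0816 there, passed only through the pluripotent libraries, so their calls follow from the filter. In iPSCs over MEFs, 5 were higher and 1 lower, against 32.7% and 20.4%. In mESCs over MEFs, Ldhd, which uses D-lactate, had the highest log2 ratio at 3.59 and Ldha the lowest at -0.52. Ldha, which favours lactate production, had an FPKM of 786 in MEFs, 284 in iPSCs, 549 in mESCs, 869 with NTC, and 422 with shGldc. Ldhb, which favours the use of lactate, had an FPKM of 33.5 in MEFs, 176 in iPSCs, 299 in mESCs, 59.6 with NTC, and 45.2 with shGldc. The ratio of Ldha to Ldhb was 23.5 in MEFs, 1.61 in iPSCs, 1.84 in mESCs, 14.6 with NTC, and 9.34 with shGldc, so the shRNA libraries differed from untreated mESCs by more than from each other. After knockdown, 2 of the 8 were at least 2-fold lower, Ldha at -1.04 and the lactate exporter Slc16a3 at -1.93 in shGldc over NTC, and 0 were higher, with Emb highest at 0.57, against 8.9% of all genes lower and 9.55% higher. Set against Pdha1, Ldha was at 11.6 in MEFs, 6.95 in iPSCs, 12.2 in mESCs, 14.1 with NTC, and 8.37 with shGldc.

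A further list held other enzymes that make or use pyruvate, together with the phosphoenolpyruvate carboxykinases Pck1 and Pck2, which act on oxaloacetate. Of 11 listed genes, 10 had a row and 9 passed, and in mESCs over MEFs 2 were higher (Gpt and Pklr) and 3 lower (Me1, Me3, and Pck2), with the pyruvate kinase gene Pklr highest and the malic enzyme gene Me3 lowest. Pklr was listed at 0 in MEFs and at an FPKM of 1.03 in mESCs, and Me3 at 1.82 in MEFs and 0 to 0.0641 elsewhere, so each passed only where it was high and had to differ. In iPSCs over MEFs, 2 were higher and 2 lower. Knockdown left 0 at least 2-fold higher and 1 lower, against 9.55% and 8.9% of all genes. The lower gene was Pklr at -2.16, from low FPKM values of 2.01 with NTC and 0.372 with shGldc. Me1, a cytosolic malic enzyme, was highest at 0.69. The list for the tricarboxylic acid cycle held 21 genes. Some are not of the cycle itself, such as Dhtkd1 of 2-oxoadipate dehydrogenase and Idh1, the cytosolic isocitrate dehydrogenase. In mESCs over MEFs, 3 were higher and 0 lower, from 2.16 for Dhtkd1 to -0.71 for Idh1, against 31.8% and 22.2% of all genes. In iPSCs over MEFs, 2 were higher, Dhtkd1 among them, and 1 lower, Idh1, against 32.7% and 20.4%. In shGldc over NTC, 0 of the 21 were past 2-fold in either direction, with Idh3b, a subunit of isocitrate dehydrogenase, highest at 0.90 and Aco1, the cytosolic aconitase, lowest at -0.49. The median of these 21 genes was 0.57 in mESCs over MEFs, 0.35 in iPSCs over MEFs, and 0.15 in shGldc over NTC, beside 0.30, 0.36, and 0.02 for all genes.

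Lists of HIF-responsive genes and of PPAR and fatty acid oxidation genes, chosen for the factors known to act on Pdk1 and Pdk4, were counted in the same way. Of 20 HIF-responsive genes other than Pdk1, 19 passed, and in mESCs over MEFs 5 were higher and 6 lower, from 2.80 for Ankrd37 to -2.79 for the peptide hormone gene Adm, against 31.8% of all genes higher and 22.2% lower. In iPSCs over MEFs, 4 were higher and 6 lower, against 32.7% and 20.4% of all genes. In shGldc over NTC, 2 were higher and 1 lower, against 9.55% and 8.9% of all genes. The stress-response gene Ddit4 was highest at 1.34. The lower gene was Adm, which had an FPKM of 0.262 with NTC, was listed at 0 with shGldc, and passed only through other libraries. In NTC over mESCs, 18 of the 19 had a ratio below 0, as did 55.5% of all genes, with 0 at least 2-fold higher and 5 lower (12.1% of all genes). The median of the HIF-responsive genes was -0.09 in mESCs over MEFs, -0.31 in iPSCs over MEFs, -0.13 in shGldc over NTC, and -0.54 in NTC over mESCs, where Pdk1 was at 3.13, 2.20, -0.86, and -0.58 and the median of all genes at 0.30, 0.36, 0.02, and -0.09. The PPAR and fatty acid oxidation list holds enzymes and carriers together with regulators such as Pparg, Foxo1, and Esrrb. Of its 26 genes, 23 passed, and 8 were higher and 6 lower in mESCs over MEFs, from 9.44 for the pluripotency-linked nuclear receptor gene Esrrb to -3.43 for the thioesterase gene Acot2, against 31.8% and 22.2% of all genes. In iPSCs over MEFs, 8 were higher and 4 lower, against 32.7% and 20.4% of all genes. With shGldc over NTC, 2 were higher and 0 lower, against 9.55% and 8.9% of all genes. The fatty acid binding protein gene Fabp3 was highest at 2.20. Cpt1b, a carnitine palmitoyltransferase of muscle, was lowest at -0.90, from an FPKM of 0.149 with NTC and 0.0328 with shGldc. In NTC over mESCs, 0 were higher and 5 lower (12.1% of all genes). The median of this list was 0.38 in mESCs over MEFs, 0.21 in iPSCs over MEFs, 0.26 in shGldc over NTC, and -0.32 in NTC over mESCs, where Pdk4 was at 1.11, 1.75, -0.19, and -1.89.

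**Figure D5:**
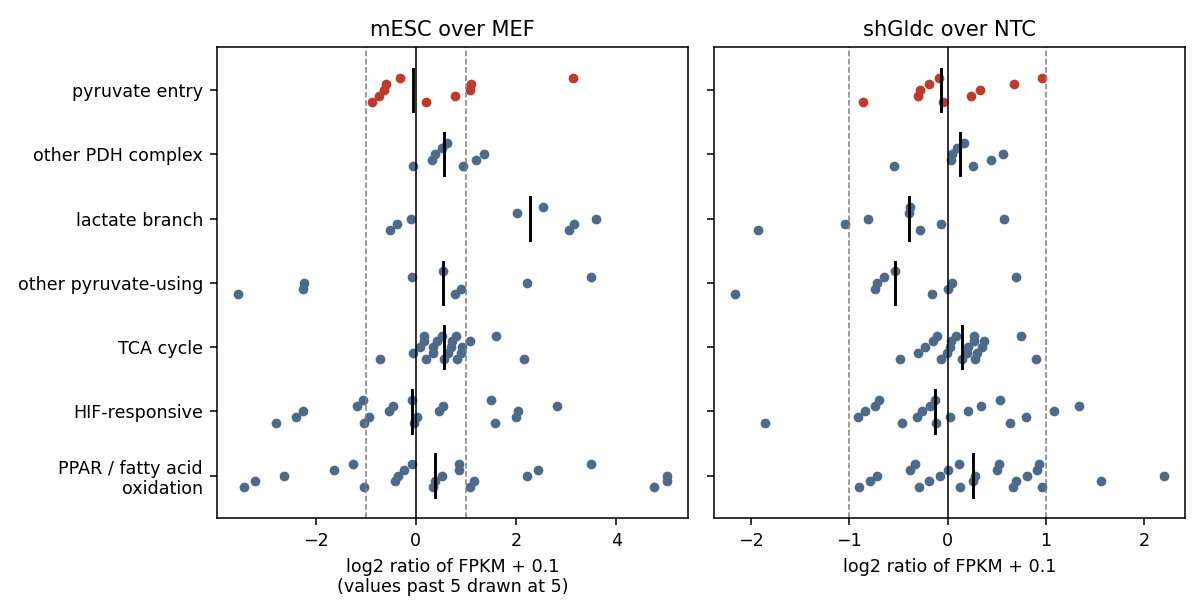
Log2 ratio of FPKM + 0.1 of each gene that passed, by gene list, for mESCs over MEFs (left, values past 5 drawn at 5) and shGldc over NTC (right), with a black bar at each list's median and dashed lines at 2-fold. The pyruvate entry genes have their median at -0.06 on the left and -0.07 on the right, and points far from 0 in the other lists include genes at or near 0 FPKM in 1 of the compared libraries.

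Only Pdk1 and Pdk4 varied at least 4-fold in FPKM + 0.1 over the 5 libraries, and for these the most alike genes were sought by the root mean square difference of centred log2 values. For Pdk1 these were Helb, a DNA helicase gene (0.0993), Ptch1, the Hedgehog receptor gene (0.111), and Usp28, a deubiquitinase gene (0.114). The FPKM of Helb was 2.15 in MEFs, 9.78 in iPSCs, 16.8 in mESCs, 10.9 with NTC, and 6.77 with shGldc. Each of the 3 had its lowest value in MEFs and its highest in mESCs, as did Pdk1. For Pdk4, they included Fam110c (0.222) and Srxn1, the sulfiredoxin gene (0.222). The FPKM of Srxn1 was 17.7 in MEFs, 50.7 in iPSCs, 35.5 in mESCs, 10.8 with NTC, and 12.1 with shGldc. With 5 libraries and 13656 genes, close matches are a description of these libraries.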

How the data were processed

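Total RNA from 5 mouse libraries was sequenced for the authors by a service provider on the Illumina HiSeq platform after library preparation with the NEBNext Ultra kit. Per the labels and the methods, reads were mapped to mm10 with TopHat2 2.1.0 (the processing notes also list mm9), transcripts were assembled with StringTie 1.3.4d, SAMtools 1.7 was used, and expression was computed with Ballgown. The authors deposited FPKM values of 24421 genes in 2 separately made tables, 1 with 3 libraries (MEF, iPSC, mESC) and 1 with 2 (NTC, shGldc). The annotation, strand setting, and filters are not given in the sources used here. Strand being unknown, reads of genes that overlap on opposite strands cannot be told apart.

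The FPKM values do not adjust for a different composition of the RNA. From them, log2(FPKM + 0.1) differences were computed over the 13656 genes that had an FPKM of 1 or above in any library, and a difference of at least 2-fold was called. With 1 library per group no test was possible. The ratios of NTC over mESCs and shGldc over mESCs cross the tables. The 10 genes, the gene lists, and the motif were chosen with earlier results of these data known. Named genes were the 10 members, Gldc, all other genes of the pyruvate dehydrogenase complex, the highest and lowest gene of each list in mESCs over MEFs and in shGldc over NTC, and the 3 genes with the pattern most alike to each member varying at least 4-fold, of which 1 is not reported here. Other genes named for a count of 5 or fewer, Ldhb, and Me3 and Pck2 among them, were named after their values were seen. Library depth was estimated from the steps between low values of 5723 single-transcript genes, and fragments per gene from the longest coding transcript. The 95% Poisson intervals cover counting error only. Positions are from GENCODE M21 (mm10) and upstream sequences from RefSeq (GRCm38.p6). Alternatives were a pseudocount of 1 or 0.01, libraries rescaled to the same FPKM sum or upper quartile, ratios centred on the median, other filters, and mESCs in place of NTC. The scripts were tested on simulated data. Scripts ran in Python 3.11.15 with pandas 2.3.3, numpy 2.4.6, matplotlib 3.10.9, and scipy 1.17.1.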

Additional observations from a re-analysis of the deposited data

How the results depend on the processing

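No paired analysis was possible because each group is 1 library, and for the same reason no library could be left out. Without replicates, a ratio was taken as moved past a shift of 0.621 on the log2 scale, which is the robust SD over all genes between NTC and mESCs, a kinase share past 10.4 percentage points, and a count past 1.5 times. No called ratio changed direction. All 36 medians and 255 of 260 ratios of single members stayed within that spread, and 15 of 72 counts moved. With a pseudocount of 1, 0 members were lower in iPSCs over MEFs and 1 in NTC over mESCs, with Pdk4 at -1.15. The same setting left 2 members higher in mESCs over MEFs, with Pdk4 at 0.74 and no longer past 2-fold. Rescaling to the same FPKM sum shifted the median of all genes by -0.23 in mESCs and -0.30 in iPSCs over MEFs, and to the same upper quartile by -0.17 and -0.18. Relative to that shift, the members higher in mESCs over MEFs became 1 under the same sum, the same upper quartile, or centring, and those lower became 1, 1, and 2. Those lower in iPSCs over MEFs became 3, 2, and 4. Those higher in iPSCs over MEFs became 3 under centring, with Pcx at 0.97 and no longer past 2-fold. Centring left 1 member lower in NTC over mESCs, and a filter at an FPKM of 5 left 0, since Pdk4 and Pdp1 were removed. With untreated mESCs as control of shGldc, 1 member was higher and 2 were lower, with Pdk2 at -0.95, Pdk4 at -2.08, Pdp1 at -0.73, and Pcx at 1.13, and this comparison crosses the tables. The kinase shares were recomputed under 2 alternatives chosen after seeing the data. Of the 40 resulting values, 10 moved, all under weighting by transcript length. They were the shares of Pdk1 and Pdk3 in every library. The weighting gave Pdk1 24.4% in MEFs, 60.2% in iPSCs, 74.7% in mESCs, 71.1% with NTC, and 55.4% with shGldc. It gave Pdk3 53.4%, 17.6%, 14.7%, 21.5%, and 36%, which turned the order of the 2 with shGldc because Pdk1 has the longer transcript. Adding 1 FPKM to each kinase, also chosen after seeing the data, moved 0 shares. The depth of shGldc is uncertain by a factor of 2, which changes its counting intervals but not its FPKM.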
